A study of Homo sapiens with 6 samples.

Results

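Cadherins and protocadherins are the calcium-dependent adhesion proteins of the cell surface. They were taken as the protein-coding rows of the deposited table whose GENCODE 29 symbol is CDH followed by a number or begins with PCDH, 87 genes of 32434 gene IDs. They comprise 22 CDH genes, 12 non-clustered protocadherins and 53 clustered protocadherins, the last with 15 genes in the alpha, 16 in the beta and 22 in the gamma cluster on chromosome 5. The samples were 6 RNA sequencing libraries from SK-N-BE(2), an established human neuroblastoma cell line. In 3 libraries the cells carried a short hairpin RNA against MYT1 (shMYT1), and in 3 a control hairpin (shNC). Per the labels, lentiviral infection for 24 h was followed by 48 h of puromycin selection. The genotype labels say knockout, whereas the protocol describes a stable knockdown, and which hairpins were used is not given in these sources. MYT1 is a DNA-binding regulator with zinc fingers, known from neuronal development, and the series title links it to differentiation and retinoic acid signalling.

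Classical cadherins such as N-cadherin (CDH2) and E-cadherin (CDH1) bind like molecules on the neighbouring cell and are tied to actin through beta-catenin and alpha-catenin. Type II cadherins, among them CDH6, CDH8, CDH11 and CDH18, share this design and are used in varied combinations by neurons. Clustered protocadherins give single neurons a surface identity. Each alpha and gamma gene has a variable first exon with its own promoter, spliced to constant exons shared by its cluster, and promoters are chosen with the help of the DNA-binding protein CTCF and cohesin.

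The promoters of the clustered genes are shown first because they carry a feature that the choice of genes did not use. In the RefSeq promoter sequences (build GRCh38.p14), 47 of the 53 clustered genes were matched. The letters CGCT occurred on the sense strand within the 100 bases before the start site in 44 of these 47 genes (93.6%), against 32.2% of the 27305 genes in the promoter table. On either strand, where the complement reads AGCG, the shares were 93.6% of the clustered genes and 48.8% of all genes. Of the 11 matched CDH promoters, 7 held it on the sense strand (63.6%) and 10 on either strand (90.9%), and of 11 matched promoters of non-clustered protocadherins 4 held it on the sense strand (36.4%) and 6 on either strand (54.5%). Longer words containing CGCT separated the clusters. GATGTCGCT was found in 9 of 13 alpha promoters, in 0 of 14 beta and 0 of 20 gamma promoters, and in 11 genes of the whole table on the sense strand (0.0403%). GGTGGCGCTG was found in 11 of 14 beta promoters, in 0 alpha and 0 gamma promoters, and in 33 genes of the whole table (0.121%). Neither longer word lay in the matched promoters of CDH genes or non-clustered protocadherins. Both longer words contain CGCT and were chosen because they recur in these promoters, so the shares describe the sequences and test nothing. The 100 bases before the start are given for the 3 clustered genes that passed the test described further on and for abundant genes of the same clusters that did not, on the plus strand, with CGCT in capitals.
PCDHAC1 (chr5:140926199-140926298): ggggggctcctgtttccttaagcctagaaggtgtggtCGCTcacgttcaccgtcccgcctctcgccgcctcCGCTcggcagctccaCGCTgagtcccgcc
PCDHAC2 (chr5:140966376-140966475): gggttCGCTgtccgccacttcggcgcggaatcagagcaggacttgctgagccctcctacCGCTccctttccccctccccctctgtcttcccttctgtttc
PCDHA10 (chr5:140855797-140855896): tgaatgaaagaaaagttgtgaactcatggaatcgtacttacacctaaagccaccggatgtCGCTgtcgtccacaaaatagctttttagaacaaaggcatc
PCDHB4 (chr5:141121718-141121817): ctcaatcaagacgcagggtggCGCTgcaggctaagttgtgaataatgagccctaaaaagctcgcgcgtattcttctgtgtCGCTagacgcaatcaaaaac
PCDHB16 (chr5:141182287-141182386): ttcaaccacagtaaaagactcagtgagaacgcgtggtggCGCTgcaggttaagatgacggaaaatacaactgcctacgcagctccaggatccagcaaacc
PCDHGC3 (chr5:141475866-141475965): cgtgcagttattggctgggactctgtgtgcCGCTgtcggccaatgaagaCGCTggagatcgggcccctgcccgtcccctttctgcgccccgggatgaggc
PCDHGC4 (chr5:141484930-141485029): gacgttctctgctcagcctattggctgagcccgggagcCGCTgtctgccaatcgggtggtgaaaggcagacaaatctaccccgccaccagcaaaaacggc

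Levels are given as FPKM, fragments scaled by exon length and library size. The values recover 18.16 to 20.3 M fragments per shMYT1 library and 21.08 to 21.68 M per shNC library. MYT1 was measured at 4.20, 4.13 and 4.36 FPKM in the shMYT1 libraries, against 5.73, 5.12 and 5.18 FPKM in the shNC libraries, a difference of -20.8% in the means (limma adjusted p = 0.0102). All 12 sympathetic neuroblast markers examined had a mean above 1 FPKM, as PHOX2A with 367 FPKM in shMYT1 and 375 FPKM in shNC cells. Their summed level was 3069 to 3159 FPKM in shMYT1 and 3474 to 3631 FPKM in shNC libraries. Of the 12, 4 were higher, 3 lower and 5 not past the threshold. Over all tested genes, for this list and the next, the shares were 11.9% higher and 12.3% lower. Genes of other cell types were also present. The summed level of 14 fibroblast and smooth muscle genes was 575 to 615 FPKM in shMYT1 and 585 to 615 FPKM in shNC libraries, with 5 of 11 tested genes higher and 4 lower. For 9 Schwann cell and glial genes it was 9.37 to 10.3 FPKM in shMYT1 and 11.6 to 12.6 FPKM in shNC, for 10 epithelial genes 4.41 to 4.84 and 3.99 to 4.37 FPKM, and for 9 endothelial genes 0.603 to 0.855 and 0.395 to 0.492 FPKM. The deposited table holds no gene ID at 0 in every library, and some listed markers had no row in it, so absence could not be read from it. The endothelial PECAM1 came close to 0. The part of these marker genes in the results below was not tested. In such bulk RNA, fewer cells expressing a gene and less RNA per cell cannot be told apart.

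Among the 87 genes, 22 reached 1 FPKM in their mean and were tested, and 65 lay below. Of the 22, 7 rose and 1 fell in shMYT1 cells (limma on log2(FPKM + 1), Benjamini-Hochberg adjusted p under 0.05 over all 14106 genes tested), and 14 did not pass. Of all tested genes, 24.2% passed, 11.9% higher and 12.3% lower, so that 49.2% of the passing genes were higher, against 36.5% after rescaling to a common FPKM total. CDH4, PCDH8 and PCDH9 were tested only because their shMYT1 levels lifted the mean to 1 FPKM, so the share of members that rose is not set against these shares. With no filter on low levels, 3 of the 65 genes below 1 FPKM passed, against 7.89% of all gene IDs. The 7 that rose were CDH2, CDH4, CDH18, PCDH8, PCDH9, PCDHAC1 and PCDHGC3, and the 1 that fell was PCDHB4. Over all 87 genes, the 3 libraries of one group lay beyond the 3 of the other in 20 genes upward and in 9 downward, against 13.7% and 13.1% of all gene IDs (26.7% in either direction). With 3 libraries in each group, an exact two-sided permutation test cannot give a p below 0.1 for a single gene. Whether replicates came from different cultures is not stated, so the p-values reflect only how far the libraries of a group differ, which may be technical.

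**Figure D1:**
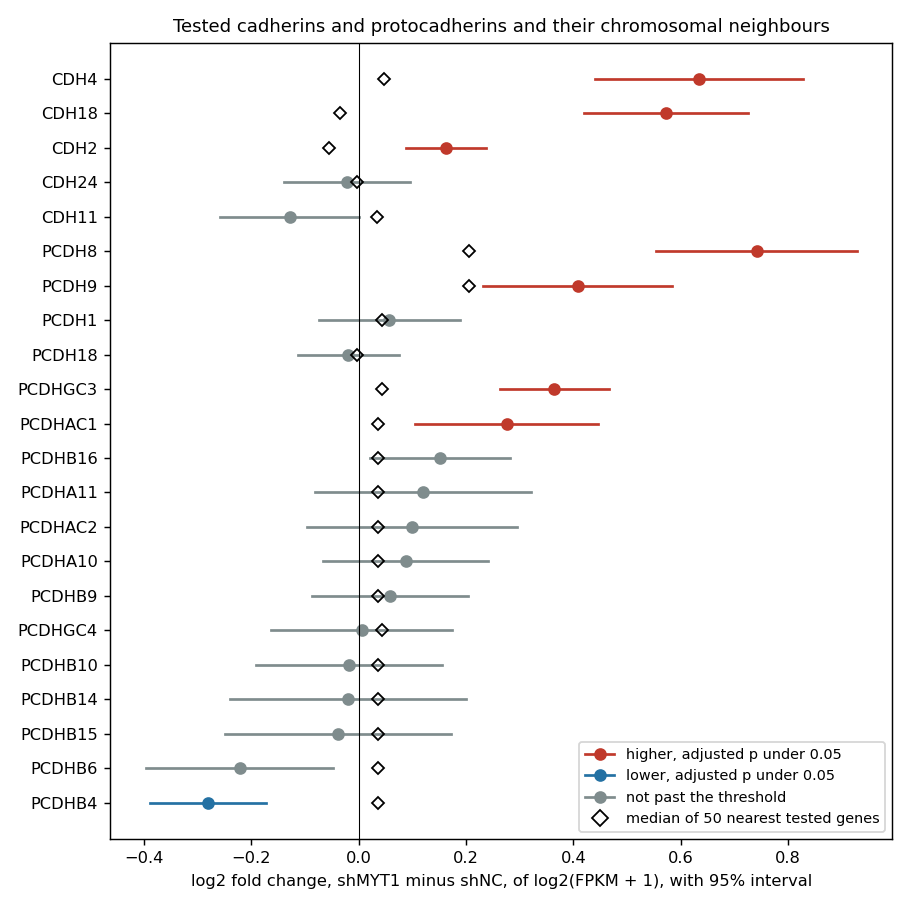
Log2 fold change (shMYT1 minus shNC, of log2(FPKM + 1)) of the 22 tested genes, with the 95% interval as a line. Filled circles in red and blue passed at adjusted p under 0.05 and grey ones did not, and open diamonds give the median fold change of the 50 nearest tested genes on the chromosome. PCDH8 (0.74), CDH4 (0.63) and CDH18 (0.57) lie farthest to the right, and PCDHB4 (-0.28) farthest to the left.

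Of the 22 CDH genes, 5 were tested, of which 3 rose and 0 fell in the limma fit. At an unadjusted p under 0.05, 0 were lower as well, and with voom on fragments 1 was lower, CDH11. CDH4, among the 3 that rose, reached the filter only through its shMYT1 levels, so these counts are not set against all genes. N-cadherin, CDH2 (ENSG00000170558, chromosome 18, 27950966 to 28177446, minus strand, hg38), is the main cadherin of neural and neural crest derived cells. Its level was 41.1, 41.1 and 42.4 FPKM in shMYT1 libraries, against 37.6, 37.5 and 35.8 FPKM in shNC libraries. The groups did not overlap, and the difference was 12.3% of the shNC mean (log2 fold change 0.16, SE 0.03, adjusted p = 0.0117). The summed levels of the 22 genes averaged 101 ± 1.90 FPKM in shMYT1 and 95.9 ± 2.73 FPKM in shNC cells (SD, n = 3 each), most of it from CDH2 and CDH24.

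CDH4, which encodes R-cadherin of the retina and developing brain, was measured at 1.99, 1.66 and 1.93 FPKM in shMYT1 libraries, against 0.817, 0.804 and 0.902 FPKM in shNC libraries. All 3 shMYT1 values were above all 3 shNC values, 2.21-fold on average (log2 fold change 0.63, SE 0.08, adjusted p = 0.00259). The gene lies on chromosome 20 at 61252426 to 61940617 (plus strand), and 216 to 292 fragments in shMYT1 and 124 to 139 in shNC libraries lay behind its values. CDH18, a type II cadherin of the nervous system, was measured at 2.32, 2.39 and 2.15 FPKM in shMYT1 libraries, against 1.21, 1.22 and 1.2 FPKM in shNC libraries. The groups were far apart relative to their spread, with a 1.89-fold difference (log2 fold change 0.57, SE 0.06, adjusted p = 0.00157). The tested neighbours of these genes moved little, with a median log2 fold change of 0.05 around CDH4 and -0.03 around CDH18.

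CDH24, a type II cadherin, had the highest level of all members, 51.9, 50.1 and 52.3 FPKM in shMYT1 and 49.1, 51.8 and 56.0 FPKM in shNC libraries. The groups overlapped (log2 fold change -0.02, 95% interval -0.14 to 0.10, adjusted p = 0.789). CDH11, known as OB-cadherin of mesenchymal cells, was at 2.22, 2.26 and 2.41 FPKM in shMYT1 libraries, against 2.52, 2.60 and 2.69 FPKM in shNC libraries. Every shMYT1 value was below every shNC value, but the difference of -11.8% did not pass (log2 fold change -0.13, SE 0.05, adjusted p = 0.138), whereas voom on fragments put it past the threshold (log2 fold change -0.18, adjusted p = 0.0256). E-cadherin was close to absent: CDH1 had 0 or 1 fragment in each shMYT1 library and 0 to 5 in each shNC library, and both groups average below the level that 3 fragments give on 1 kb of exon, 0.15 to 0.17 FPKM in shMYT1 and 0.140 to 0.143 FPKM in shNC libraries.

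**Figure D2:**
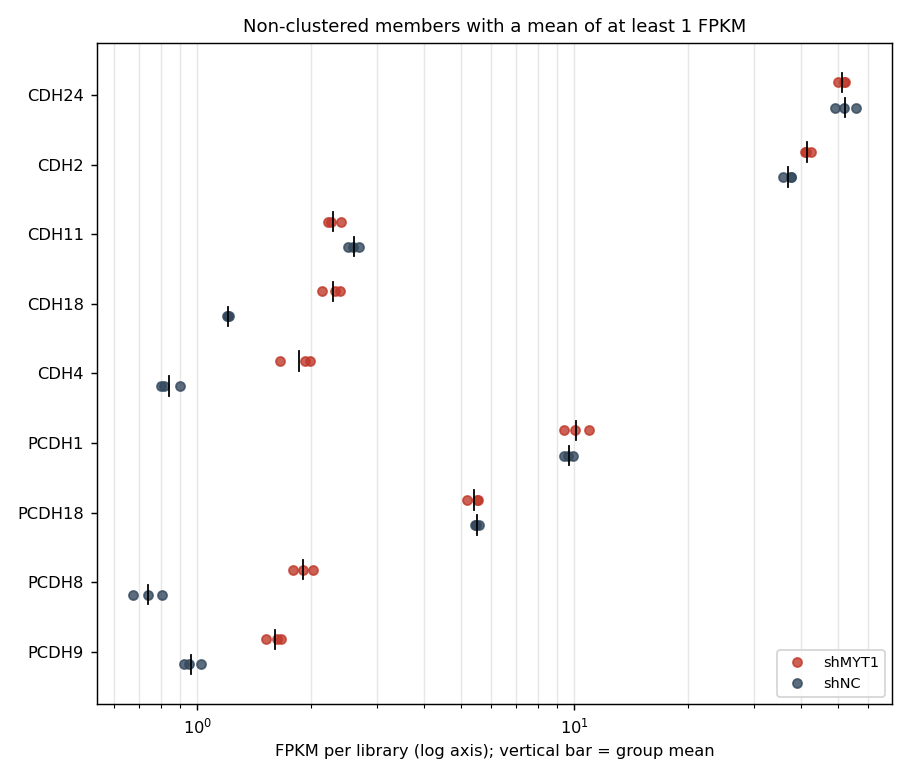
Level in each library (FPKM, log axis) of the 5 CDH genes and 4 non-clustered protocadherins with a mean of at least 1 FPKM, with shMYT1 libraries in the upper and shNC libraries in the lower row of each gene and the group mean as a vertical bar. CDH2, CDH4, CDH18, PCDH8 and PCDH9 have separate groups with shMYT1 to the right, CDH11 has separate groups with shMYT1 to the left, and CDH24, PCDH1 and PCDH18 overlap.

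The other 17 CDH genes lay below 1 FPKM. Their fragments could be recovered, and in a fit of fragments with voom, added after the data were seen, over all genes with at least 30 fragments in total, 58 of the 65 members below 1 FPKM could be tested. Of these 58, 7 passed, against 25.8% of all genes in that fit. They were CDH3, CDH6, CDH7, CDH8, CDH13, PCDH10 and PCDH17, and they are named because of this result. CDH3, the P-cadherin gene and neighbour of CDH1 on chromosome 16, had 10 to 19 fragments in each shMYT1 library, against 69 to 71 in each shNC library. Its level was 0.153, 0.163 and 0.0903 FPKM in shMYT1 libraries, against 0.530, 0.527 and 0.535 FPKM in shNC libraries. This was the clearest fall among the low genes, 0.255 times the shNC mean (voom log2 fold change -1.97, SE 0.28, adjusted p = 2.17e-06), and CDH3 also passed on log2(FPKM + 1) with no filter (adjusted p = 0.00801). Of its exon bases, 694 of 6236 are shared with a gene on the opposite strand.

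CDH8, a type II cadherin, had 4 to 8 fragments in shMYT1 libraries and 24 to 32 in shNC libraries (voom log2 fold change -2.07, SE 0.41, adjusted p = 0.000268). Higher levels in shMYT1 cells were found for 3 low genes. CDH7, also type II, was at 0.20, 0.167 and 0.225 FPKM in shMYT1 libraries, against 0.0737, 0.0623 and 0.0624 FPKM in shNC libraries (voom log2 fold change 1.55, SE 0.26, adjusted p = 2.69e-05). CDH13, the T-cadherin that lacks a cytoplasmic tail and is anchored to the membrane by a lipid, was at 0.134, 0.243 and 0.236 FPKM in shMYT1 libraries, against 0.0375, 0.0809 and 0.0810 FPKM in shNC libraries (voom log2 fold change 1.61, adjusted p = 0.000508). CDH6, K-cadherin, averaged 0.244 FPKM in shMYT1 and 0.125 FPKM in shNC cells (voom log2 fold change 1.00, adjusted p = 0.00170). Of the voom calls in CDH genes, only CDH3 and CDH7 also passed with no filter at a pseudocount of 1, and only CDH3 at a pseudocount of 0.1.

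**Figure D3:**
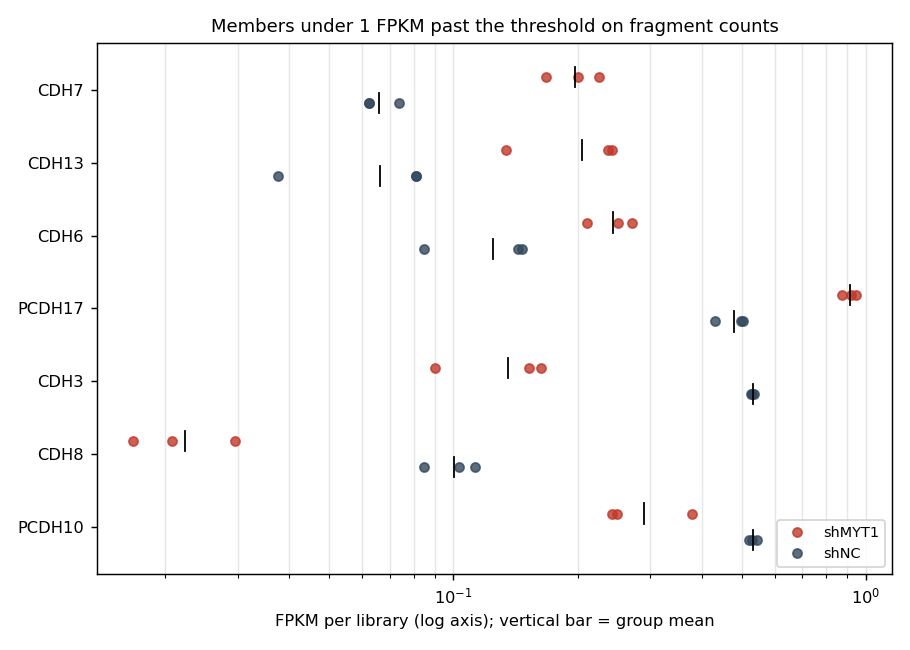
Level in each library (FPKM, log axis) of the 7 members below 1 FPKM that passed in the fit of fragments, with shMYT1 libraries in the upper and shNC libraries in the lower row of each gene and the group mean as a vertical bar. CDH7, CDH13, CDH6 and PCDH17 lie to the right in shMYT1 cells, and CDH3, CDH8 and PCDH10 lie to the left, with no overlap between the groups in any of the 7. The genes were chosen by that fit of the same libraries, so their separation tests nothing.

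Of the 12 non-clustered protocadherins, 4 were tested, of which 2 rose and 0 fell with limma. Likewise 0 were lower at an unadjusted p under 0.05 or with voom. PCDH8 and PCDH9, the 2 that rose, reached the filter only through their shMYT1 levels, so these counts are not set against all genes. Delta protocadherins of this kind signal through their cytoplasmic tails to actin regulators as well as mediating adhesion. PCDH8 (ENSG00000136099, chromosome 13, 52842889 to 52848641, minus strand), the homologue of a rat protein induced by synaptic activity, was measured at 1.91, 1.79 and 2.03 FPKM in shMYT1 libraries, against 0.741, 0.675 and 0.806 FPKM in shNC libraries. It had the largest fold difference of the 22 tested members, 2.58-fold (log2 fold change 0.74, SE 0.08, adjusted p = 0.00131), with 163 to 196 fragments in shMYT1 and 73 to 87 in shNC libraries. PCDH9 (chromosome 13, 66302834 to 67230445, minus strand) was measured at 1.67, 1.63 and 1.52 FPKM in shMYT1 libraries, against 1.02, 0.95 and 0.922 FPKM in shNC libraries. The difference was 1.67-fold (log2 fold change 0.41, SE 0.07, adjusted p = 0.00961), with no overlap.

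PCDH17, a protocadherin between these genes on chromosome 13 (57631810 to 57729311, plus strand), had 0.921, 0.876 and 0.947 FPKM in shMYT1 libraries, against 0.431, 0.498 and 0.504 FPKM in shNC libraries. It was under the filter, and passed in the fit of fragments (voom log2 fold change 0.94, SE 0.14, adjusted p = 4.46e-06) and on log2(FPKM + 1) with no filter (adjusted p = 0.0318). The surroundings of all 3 genes were shifted upward too. Among the 50 nearest tested genes of PCDH8, members left out, the median log2 fold change was 0.21 and 47 of the 50 were above 0, and the medians around PCDH9 and PCDH17 were 0.21 and 0.20. With the running median of 50 neighbouring genes removed, PCDH8 remained past the threshold (log2 fold change 0.54, adjusted p = 0.00640) and PCDH9 did not (log2 fold change 0.21, adjusted p = 0.106). The removal was made on log2(FPKM + 1), which understates changes of genes as low as these. How much of either rise goes with the surroundings was not tested.

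The 2 most abundant non-clustered protocadherins did not pass. PCDH1, which lies near the gamma cluster on chromosome 5, was at 10.0, 9.39 and 10.9 FPKM in shMYT1 and 9.65, 9.39 and 9.94 FPKM in shNC libraries (log2 fold change 0.06, 95% interval -0.07 to 0.19, adjusted p = 0.501). PCDH18 was at 5.20, 5.55 and 5.51 FPKM in shMYT1 and 5.49, 5.57 and 5.45 FPKM in shNC libraries (log2 fold change -0.02, 95% interval -0.11 to 0.07, adjusted p = 0.763). PCDH10, a delta protocadherin of chromosome 4, was at 0.242, 0.378 and 0.249 FPKM in shMYT1 libraries, against 0.545, 0.530 and 0.521 FPKM in shNC libraries. It was lower in the fit of fragments (voom log2 fold change -0.91, SE 0.17, adjusted p = 0.000182), but not on log2(FPKM + 1) with no filter (adjusted p = 0.0872). PCDH7, also on chromosome 4, averaged 0.634 FPKM in shMYT1 and 0.765 FPKM in shNC cells with overlapping groups.

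Of the 53 clustered protocadherins, 13 were tested, of which 2 rose, 1 fell and 10 did not pass. The share that passed was near the 24.2% of all tested genes (11.9% higher, 12.3% lower). The median log2 fold change of the 13 was 0.06. All 15 alpha genes were above 0 in every library. Low alpha genes had as few as 12 to 17 fragments per library while the highest alpha gene had 485 to 602, so fragments in the constant exons cannot have been added to every gene of the cluster. The FPKM of alpha and gamma genes is divided by all their exon bases, of which 2866 or more in alpha and 2181 or more in gamma genes are shared with other genes on the same strand, so their levels are understated relative to beta genes, whose exons are mostly their own.

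Over the gamma cluster, summed levels averaged 28.4 ± 1.16 FPKM in shMYT1 and 23.0 ± 0.25 FPKM in shNC cells (SD, n = 3 each), 1.24-fold. Most of this came from PCDHGC3 (ENSG00000240184, chromosome 5, 141475947 to 141512979, plus strand), the C-type gene near the end of the cluster. It was measured at 18.6, 19.2 and 20.5 FPKM in shMYT1 libraries, against 14.5, 14.8 and 15.3 FPKM in shNC libraries. All shMYT1 values lay above all shNC values (1.31-fold, log2 fold change 0.36, SE 0.04, adjusted p = 0.00187), with 1848 to 2015 and 1687 to 1743 fragments. With all its fragments divided by its 3251 unshared exon bases, of 5432, its level averaged 32.5 FPKM in shMYT1 and 24.8 FPKM in shNC cells. This takes every fragment to lie in the unshared bases, and where the fragments lay is not known. PCDHGC3 held 67.9, 68.1 and 69.0% of the gamma fragments in shMYT1 libraries, against 63.6, 64.5 and 65.9% in shNC libraries. The remaining gamma genes together reached 9.01 ± 0.22 FPKM in shMYT1 and 8.12 ± 0.18 FPKM in shNC cells (SD, n = 3 each).

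PCDHGC4, the next C-type gene, was at 2.17, 2.16 and 2.01 FPKM in shMYT1 and 1.90, 2.09 and 2.33 FPKM in shNC libraries, with overlapping groups (log2 fold change 0.01, 95% interval -0.16 to 0.17, adjusted p = 0.965). Both genes hold CGCT near their start, as printed above. The other 20 gamma genes lay below 1 FPKM, the highest being PCDHGB2 with 0.683, 0.901 and 0.909 FPKM in shMYT1 and 0.928, 0.489 and 0.750 FPKM in shNC libraries. Of the 22 gamma genes, 3 had all shMYT1 values above all shNC values, 0 had them below, and 19 overlapped, against 13.7% above and 13.1% below over all gene IDs, so the upward count is near the background.

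**Figure D4:**
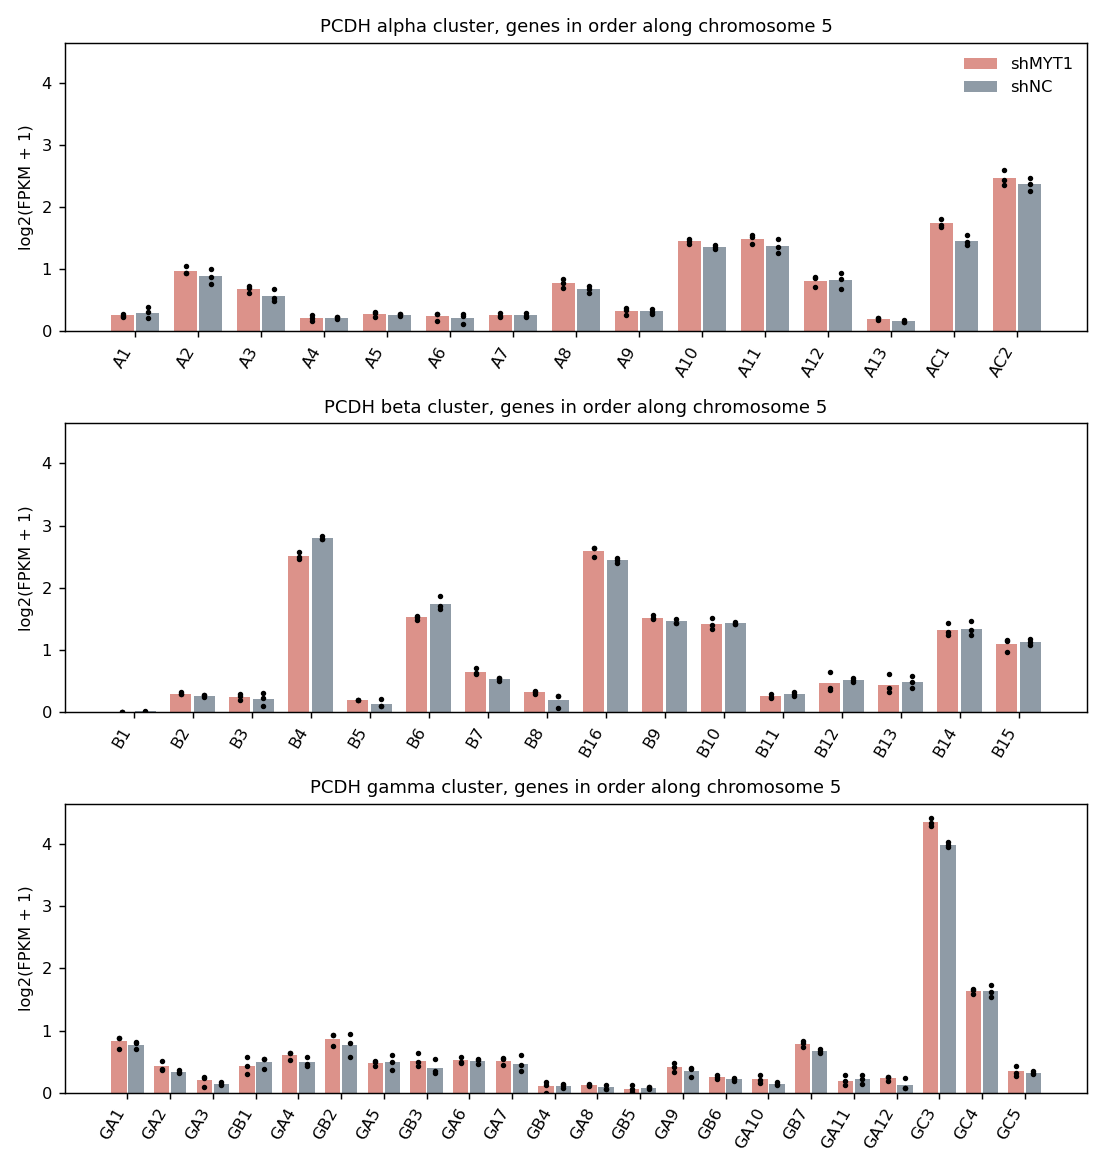
Level of the 53 clustered protocadherins as log2(FPKM + 1), in their order along chromosome 5, with bars for the mean of the 3 libraries of each group (shMYT1 left, shNC right) and a point for each library. PCDHGC3 is the tallest bar, PCDHAC2 leads the alpha cluster, PCDHB4 and PCDHB16 lead the beta cluster, and most other genes stay below 1 on this scale.

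In the alpha cluster, summed levels averaged 14.8 ± 0.42 FPKM in shMYT1 and 13.1 ± 0.74 FPKM in shNC cells (SD, n = 3 each). The C-type gene PCDHAC1 (chromosome 5, 140926369 to 141012344, plus strand) was measured at 2.52, 2.22 and 2.28 FPKM in shMYT1 libraries, against 1.93, 1.63 and 1.72 FPKM in shNC libraries. The groups did not overlap (1.33-fold, log2 fold change 0.28, SE 0.07, adjusted p = 0.0334), but the call is close to the threshold. It was lost without any 1 of 5 libraries, all but shNC replicate 1 (adjusted p from 0.0575 to 0.106). The call was also lost with no filter (adjusted p = 0.0905) and with the running median of 50 neighbouring genes removed. PCDHAC2, the highest alpha gene, was at 4.42, 4.12 and 5.05 FPKM in shMYT1 and 4.17, 3.76 and 4.54 FPKM in shNC libraries, with overlapping groups (log2 fold change 0.10, 95% interval -0.10 to 0.29, adjusted p = 0.429). PCDHA11 and PCDHA10, the highest genes of the variable type, differed by 0.12 and 0.09 on the log2 scale and did not pass (adjusted p = 0.353 and 0.372). The other 11 alpha genes lay below 1 FPKM.

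The beta cluster has no constant exons, and each gene is a single-exon or nearly single-exon unit. Its summed level averaged 20.1 ± 0.87 FPKM in shMYT1 and 21.0 ± 0.44 FPKM in shNC cells (SD, n = 3 each). PCDHB4 (ENSG00000081818, chromosome 5, 141121799 to 141125623, plus strand) was measured at 4.66, 4.52 and 4.99 FPKM in shMYT1 libraries, against 6.14, 5.87 and 5.86 FPKM in shNC libraries. All shMYT1 values lay below all shNC values, a difference of -20.6% (log2 fold change -0.28, SE 0.05, adjusted p = 0.00635), with 306 to 356 fragments in shMYT1 and 470 to 504 in shNC libraries. PCDHB6, in the same stretch of the cluster, was at 1.90, 1.80 and 1.93 FPKM in shMYT1 libraries, against 2.17, 2.26 and 2.66 FPKM in shNC libraries. These groups did not overlap either, but the difference did not pass (log2 fold change -0.22, SE 0.07, adjusted p = 0.0706), although it passed on rescaling (adjusted p = 0.0483), among protein-coding genes only (adjusted p = 0.0197) and with the running median removed (adjusted p = 0.0446). The other highly expressed beta gene went the other way in value: PCDHB16 was at 4.65, 5.24 and 5.26 FPKM in shMYT1 libraries, against 4.45, 4.59 and 4.27 FPKM in shNC libraries (log2 fold change 0.15, SE 0.05, adjusted p = 0.0910). PCDHB16 passed among protein-coding genes only (adjusted p = 0.0484) and without shMYT1 replicate 1 (adjusted p = 0.0490).

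PCDHB4 was thus at 1.00, 0.864 and 0.949 times the level of PCDHB16 in the shMYT1 libraries, against 1.38, 1.28 and 1.37 times in the shNC libraries. These ratios could not overlap between the groups, because PCDHB4 was lower and PCDHB16 higher in every shMYT1 library. The promoters of both genes carry GGTGGCGCTG, a word found in 11 of the 14 matched beta promoters. PCDHB9, PCDHB10, PCDHB14 and PCDHB15 had log2 fold changes from -0.04 to 0.06 and overlapping groups. The tested genes around the 3 clusters had median log2 fold changes of 0.04, members left out. Beta genes are close copies of each other, so fragments could have been assigned to a related gene, and 815 of the 5001 exon bases of PCDHB16 are shared with a gene on the opposite strand, which cannot be told apart without a stated strand setting.

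Partners of the cadherin tail were examined as a list of 14 genes, 13 of them tested, and 7 rose, 0 fell and 6 did not pass, against 11.9% higher and 12.3% lower among all tested genes. CTNNB1, which encodes beta-catenin, was at 30.2, 30.7 and 29.5 FPKM in shMYT1 libraries, against 24.1, 24.7 and 26.0 FPKM in shNC libraries (log2 fold change 0.26, SE 0.04, adjusted p = 0.00297). JUP, the gene of plakoglobin, rose by 0.33 (adjusted p = 0.00101), and ARVCF, a catenin of the p120 family, by 0.45 (adjusted p = 0.00175). CTNNA1, CTNNA2, CTNND1 and VCL, the genes of 2 alpha-catenins, p120-catenin and vinculin, rose by 0.26, 0.19, 0.11 and 0.13. Calls for these genes were not followed under the alternative settings described at the end. The median log2 fold change of the 13 was 0.11, against -0.005 over all tested genes. Of 10 tested genes among other members of the cadherin superfamily, 3 rose and 0 fell. FAT1, an atypical cadherin gene, missed the filter only through its shMYT1 levels and was lower in the fit of fragments. Because the filter left FAT1 out, these counts are not set against all genes. FAT1 was at 0.644, 0.647 and 0.647 FPKM in shMYT1 libraries, against 1.36, 1.24 and 1.26 FPKM in shNC libraries, with no overlap (voom log2 fold change -0.99, SE 0.09, adjusted p = 7.1e-10). CELSR2, a seven-pass cadherin of planar polarity, was at 10.9, 10.2 and 10.3 FPKM in shMYT1 libraries, against 6.74, 6.49 and 6.84 FPKM in shNC libraries (log2 fold change 0.58, SE 0.04, adjusted p = 0.000302). FAT3, a giant atypical cadherin, rose by 0.49 (adjusted p = 0.00435) and CLSTN1, calsyntenin, by 0.12 (adjusted p = 0.0240). At a pseudocount of 0.1 the FAT3 rise was 0.82 (limma adjusted p = 0.00556), so its level lay near the filter. The CLSTN1 call was lost on rescaling (adjusted p = 0.055), with a constant variance (adjusted p = 0.0562), with the running median removed (log2 fold change 0.06, adjusted p = 0.18) and without any 1 library but shNC replicate 3 (adjusted p from 0.0627 to 0.0912).

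Transcription factors that repress or activate cadherins in the switch between E-cadherin and N-cadherin formed a list with 7 tested genes, of which 0 rose, 4 fell and 3 did not pass, against 11.9% higher and 12.3% lower among all tested genes. PRRX1, a homeobox gene of the same list, missed the filter only through its shNC levels, so the 0 that rose depends on the filter. PRRX1 was higher in the fit of fragments, with 1.32, 1.55 and 1.32 FPKM in shMYT1 libraries, against 0.480, 0.491 and 0.538 FPKM in shNC libraries (voom log2 fold change 1.46, SE 0.13, adjusted p = 6.01e-10). SNAI2, a repressor of E-cadherin, was at 19.5, 15.7 and 15.9 FPKM in shMYT1 libraries, against 25.3, 26.3 and 26.1 FPKM in shNC libraries (log2 fold change -0.58, SE 0.08, adjusted p = 0.00325). TWIST1 was at 103, 103 and 110 FPKM in shMYT1 libraries, against 133, 130 and 143 FPKM in shNC libraries (log2 fold change -0.36, SE 0.04, adjusted p = 0.00215). TCF3 and TCF4 fell by 0.11 and 0.16. The TCF4 call was lost without any 1 of 4 libraries (shMYT1 replicates 1 and 3, shNC replicates 1 and 2, adjusted p from 0.083 to 0.11). The TCF3 call was not followed under the alternative settings. Among 20 tested regulators of clustered protocadherin promoters, 2 rose, 4 fell and 14 did not pass, 6 of 20 in all, against 24.2% of all tested genes, with a median log2 fold change of -0.04. CTCF itself averaged 20.2 FPKM in shMYT1 and 20.4 FPKM in shNC cells (log2 fold change -0.01, adjusted p = 0.799). The cohesin genes RAD21 and SMC3 fell by 0.22 and 0.21 (adjusted p = 0.0227 and 0.0241), and the DNA methyltransferase gene DNMT1 by 0.21 (adjusted p = 0.00276). RAD21 and SNAI2 lie on chromosome 8, and with the running median of neighbouring genes removed RAD21 was at 0.03 (adjusted p = 0.696) and SNAI2 at -0.31 (adjusted p = 0.0393). In the same fit DNMT1 was at -0.11 (adjusted p = 0.0341) and SMC3 at -0.17 (adjusted p = 0.0546). The RAD21 call was also lost without shMYT1 replicate 1 or 3 or shNC replicate 1 or 2 (adjusted p from 0.0558 to 0.0792), and the SMC3 call without shMYT1 replicate 1 or shNC replicate 1 or 2 (adjusted p from 0.0503 to 0.0817).

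Of 17 tested effectors of protocadherins, 1 rose and 3 fell, a share near the 24.2% of all tested genes. WASF3 of the actin-nucleating WAVE complex rose by 0.49 (adjusted p = 0.000234), while its paralogue WASF1 fell by 0.27 (adjusted p = 0.00101) and PTK2, the focal adhesion kinase gene, by 0.23 (adjusted p = 0.00438). WASF3 lies on chromosome 13 and PTK2 on chromosome 8, and with the running median removed their log2 fold changes were 0.26 (adjusted p = 0.00277) and -0.09 (adjusted p = 0.114). Of 15 tested genes of cadherin processing and turnover, 2 rose and 1 fell, no larger a share than among all tested genes. MMP2, a gelatinase, was at 139, 140 and 147 FPKM in shMYT1 libraries, against 82.0, 80.5 and 86.8 FPKM in shNC libraries (log2 fold change 0.77, adjusted p = 9.08e-05), MMP14 fell by 0.24 (adjusted p = 0.00802), and the gamma-secretase gene NCSTN rose by 0.18 (adjusted p = 0.0430). The NCSTN call was lost with no filter (adjusted p = 0.0948), at a minimum of 0.2 FPKM (0.0624), on rescaling (0.0594), with a constant variance (0.0676), with the running median removed (0.163) and without any 1 library but shMYT1 replicate 1 (0.0532 to 0.132). ADAM10, the main sheddase of N-cadherin, averaged 7.07 FPKM in shMYT1 and 7.20 FPKM in shNC cells (adjusted p = 0.784).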

How the data were processed

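Total RNA of 6 libraries was sequenced, 3 shMYT1 and 3 shNC. The authors deposited 1 table of FPKM values, 1 column for each library. The tools named in the submitters' processing notes are HISAT2 2.0.5 and featureCounts 1.5.0-p3, with build hg38. Not given in the sources used here are the authors' annotation, their strand setting and any filter. Symbols, positions and exon lengths came from GENCODE 29, which held 32301 of the 32434 gene IDs. FPKM times exon length gave fragment numbers within 0.01 of a whole number in every library for 95.4% of them and for 84 of the 87 members. Floors reflect counting error alone.

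Genes whose mean reached 1 FPKM entered a two-sided limma test (version 3.58.1, R 4.3.3) of log2(FPKM + 1) that let the variance follow the level, with Benjamini-Hochberg adjustment over all genes tested. Fold changes on this scale understate changes of low genes. Fragments were also tested with limma's voom, scaled by the library size in the FPKM. The fits were tested on simulated data. Replicates differed by more than counting noise (chi-square per gene between pairs 2.09 to 3.405), and none were merged.

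The members and lists were chosen with earlier results of these data known. Named were MYT1, the members past the threshold (up to 12 per class), the 3 highest of each class and of the clustered genes, CDH1, CDH2 and CDH11, and, from each list, the 3 genes past the threshold that changed most, or the 2 highest where none passed. Genes outside this rule were named after their values were seen. These are the low members, PCDHA10, PCDHB9, PCDHB10, PCDHB14, PCDHB15, FAT1, PRRX1, the further list genes and PHOX2A.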

Additional observations from a re-analysis of the deposited data

How the results depend on the processing

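The alternatives were another pseudocount, other filters on low values, rescaling, a constant variance, protein-coding genes alone, voom, removal of the running median, a replicate block, and each library left out in turn. Over all genes, leaving out 1 library gave 1018 to 1579 higher and 1020 to 1469 lower genes, against 1683 and 1737. Without shMYT1 replicate 1 there were 1094 and 1102, without shNC replicate 1 1098 and 1097, and without shNC replicate 2 1018 and 1020. Rescaling to a common FPKM total put 36.5% of the passing genes higher, against 49.2% as deposited. The lower CDH genes numbered 1 with no filter, 1 at a minimum of 0.2 FPKM and 1 with voom, against 0. With the running median of neighbours removed, 1 non-clustered protocadherin was higher, against 2. Of clustered genes, 1 was higher with no filter, 1 with the running median removed and 1 to 2 when 1 library was left out, against 2; among protein-coding genes only there were 3, with PCDHB16 added, and without shMYT1 replicate 1 PCDHB16 took the place of PCDHAC1. Clustered genes that were lower numbered 2 on rescaling, 2 among protein-coding genes only and 2 with the running median removed, against 1; PCDHB6 is the added gene in each. RAD21 changed sign with the running median removed (log2 fold change 0.0328). The replicate block changed no call of a named gene and gave 1652 higher and 1729 lower genes. Replicate numbers were compared through the deviation of each gene from its group mean on log2(FPKM + 1). These deviations correlated best between libraries of the same number (correlations 0.013 to 0.043, against -0.039 to 0.008 for other numbers), a hint from the data. All of these correlations lay under 0.1, and the numbers were not taken to pair samples. CDH2, CDH4, CDH18, PCDH8, PCDHGC3 and PCDHB4 kept their call and direction under all 15 alternatives. Low levels limit the 65 members below 1 FPKM, 31 of them with fewer than 30 fragments in every library.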

Other observations

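Outside the protein-coding genes of the clusters, the transcribed pseudogene PCDHB18P was at 2.05, 2.28 and 1.87 FPKM in shMYT1 libraries, against 3.23, 2.38 and 2.48 FPKM in shNC libraries. The groups did not overlap, the difference did not pass on log2(FPKM + 1) (log2 fold change -0.26, limma adjusted p = 0.109) and it passed in the fit of fragments (voom log2 fold change -0.38, adjusted p = 0.0350). CLSTN2, a calsyntenin gene, averaged 0.224 FPKM in shMYT1 and 0.0864 FPKM in shNC cells (voom log2 fold change 1.34, adjusted p = 5.37e-05). These genes were chosen after their values were seen.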
